A study of Mus musculus with 10 samples.

Results

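Genes that mark T cells and natural killer (NK) cells were followed across expression arrays of sorted splenic B cells. The set holds 10 genes of 19937 measured, each named by its symbol and each read by 1 probe set. The 5 T cell genes are Cd3d, Cd3g, Cd28, Cd8b1 and Thy1, and the 5 NK and cytotoxic genes are Ncr1, Klrd1, Prf1, Gzmb and Nkg7.

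T cells recognise peptides through a T cell receptor that signals through the CD3 chains, with CD4 or CD8 as coreceptor and CD28 as a costimulatory receptor. NK cells carry activating and inhibitory receptors in place of an antigen receptor. Both NK cells and cytotoxic T cells kill by releasing perforin and granzymes from granules. The transcription factor T-bet, encoded by Tbx21, drives much of this cytotoxic programme, and it is also known from a subset of B cells.

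Cells were sorted from mouse spleen as CD22+B220+ B cells and measured on Affymetrix Mouse Gene 1.0 ST arrays. All mice were of the CBAxC57BL/6J background, and the groups were 3 Wild-type arrays, 3 Sca1-Bcl6(floxed) arrays and 4 Sca1-Bcl6(delta) arrays, called wild-type, floxed and delta here. Floxed mice carry a transgene of the Sca1 (Ly6a) vector, active in haematopoietic stem cells, in which loxP sites flank mouse Bcl6 with IRES-eGFP. Delta mice carry the same transgene and mb1-Cre, a Cre driven from the B lineage gene Cd79a, so that excision is directed to B lineage cells. The labels name neither age, transgenic line nor the animals behind an array, so p-values measure the spread between these samples, which may be technical.

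The values were RMA intensities, given here as log2 levels. A level of 1 probe set cannot be set against that of another, so every comparison below is of 1 gene across arrays. Array medians lay between 139 and 145 on the linear scale. Cd3d, Ncr1, Klrd1 and Gzmb were read by dim probe sets, with group means of 37.2 to 67.0 on that scale. Of 11 measured B cell genes, the mean log2 level lay between 12.76 and 12.95 in all 10 arrays, and CD22, a marker of the sort, had Cd22 levels of 12.88 to 13.18. Bcl6 lay at 9.80 to 10.48 in wild-type, 9.80 to 9.96 in floxed and 9.56 to 9.83 in delta arrays, so its probe set did not set the transgenic groups above wild-type. Xist and Y-linked genes gave a female pattern in all 3 wild-type arrays, a male pattern in all 3 floxed arrays, and a male pattern in delta 1 alone of the 4 delta arrays. Sex and genotype therefore cannot be told apart between floxed and wild-type.

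The first comparison, floxed against wild-type, asked whether T and NK cell genes were at the same level in B cells of both genotypes. Differences were estimated with limma over all 10 arrays, and p-values were adjusted over all 19937 genes by the Benjamini-Hochberg method and called under 0.05. All 10 genes had a higher mean in floxed arrays, as did 41.9% of all genes (58.1% had a lower mean), with log2 differences from 0.07 to 1.36 and a median of 0.43. The median over all genes was -0.02. None of the 10 passed the threshold, beside 0.552% of all genes in either direction, 0.391% higher and 0.161% lower. At an unadjusted p under 0.05, 7 of 10 were higher, beside 6.14% of all genes, and 0 were lower, beside 6.63%. In Cd3d, Cd3g, Cd28 and Prf1, 4 of 10, all floxed arrays lay above all wild-type arrays, beside 7.6% of all genes, and in 0 of 10 they lay below, beside 9.13%. The genes were chosen with earlier results of these data known, so these counts are a description.

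The arrays of the floxed group were not alike. In floxed 1 all 10 genes lay above every wild-type array, beside 25.3% of all genes, and in floxed 3 all 10 did so, beside 27.4%. In floxed 2 only Cd3d, Cd3g, Cd28 and Prf1 lay above every wild-type array, 4 of 10 beside 22.9% of all genes, while Thy1 and Klrd1 lay below every one, 2 of 10 beside 34.1%. The median difference of the 10 genes from the wild-type mean was 0.62 in floxed 1, 0.04 in floxed 2 and 0.67 in floxed 3. Floxed 2 was the lowest floxed array for 9 of 10 genes, beside 30.7% of all genes. The exception was Prf1, for which floxed 2 was the highest. In bulk RNA, fewer T or NK cells in a sample and less of these transcripts per cell cannot be told apart.

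**Figure D1:**
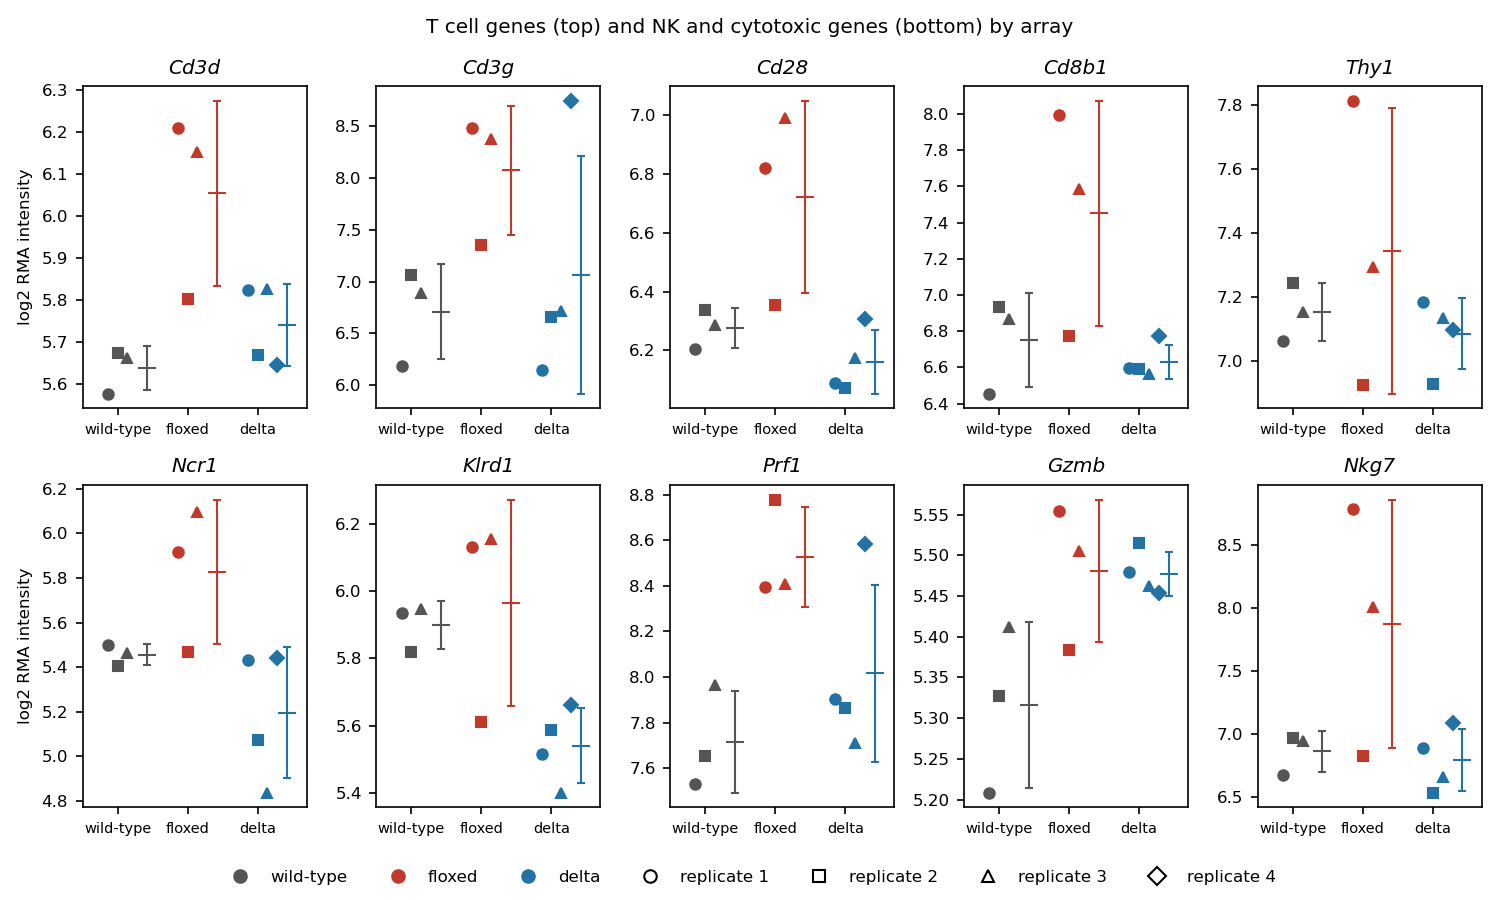
Log2 RMA intensity of the 5 T cell genes (top row) and the 5 NK and cytotoxic genes (bottom row) in each array, by group, with points for arrays (shape gives the replicate number) and bars for the group mean and standard deviation (n = 3, 3 and 4). Each panel has its own vertical axis. The floxed square, replicate 2, is the lowest floxed array in 9 panels and the highest in the panel of Prf1, and delta 4 stands high for Cd3g and Prf1.

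The T cell receptor complex was represented by Cd3d and Cd3g, which encode the CD3 delta and gamma chains. Cd3d had log2 levels of 5.58, 5.67 and 5.66 in wild-type 1, 2 and 3, of 6.21, 5.80 and 6.15 in floxed 1, 2 and 3, and of 5.82, 5.67, 5.83 and 5.65 in delta 1, 2, 3 and 4. All floxed arrays lay above all wild-type arrays, and delta overlapped both groups. The difference of Cd3d between floxed and wild-type was 0.42 (SE 0.10, 95% CI 0.19 to 0.64, limma adjusted p = 0.10).

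Cd3g had log2 levels of 6.19, 7.06 and 6.89 in wild-type, of 8.49, 7.36 and 8.38 in floxed, and of 6.15, 6.66, 6.72 and 8.75 in delta arrays, in the order of their replicate numbers. Floxed lay above wild-type without overlap here too, but the highest array of all 10 was delta 4. The linear intensity of Cd3g averaged 108 ± 31.5 (SD, n = 3 wild-type), 285 ± 106 (SD, n = 3 floxed) and 177 ± 170 (SD, n = 4 delta). The spread of Cd3g in delta arrays entered the shared error of the fit, and its floxed difference of 1.36 had an SE of 0.55 and an adjusted p of 0.330 in limma. With sex as a covariate it was 2.59 (SE 0.89), a value that rests on delta 1.

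The Cd3d and Cd3g patterns parted in delta 4. Relative to the wild-type mean, delta 4 stood at 2.04 for Cd3g and at 0.01 for Cd3d. Cd3e, which encodes the CD3 epsilon chain and belongs to a wider T cell list, stood at 7.82 in delta 4, against 7.50 to 7.85 in wild-type arrays. Against the other delta arrays, at 7.38 to 7.45, Cd3e was high in delta 4 too, while Cd3d was lowest there. The rise of Cd3g above the wild-type range in delta 4 was thus not shared by Cd3d or Cd3e. Within groups, after each group's mean was removed, Cd3d and Cd3g had an r of 0.10, the lowest among the 10 pairs of T cell genes.

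Cd3d and Cd3g lie next to each other on chromosome 9 and are read in opposite directions. Their upstream sequences are shown because these neighbours differ in delta 4, with capitals for the T-box core AGGTGT or, on the other strand, ACACCT. Each is the RefSeq window of 250 bases before the gene start in GRCm38.p6, 5′ to 3′ in the direction of the gene, chr9:44981536-44981785 on the plus strand for Cd3d and chr9:44980432-44980681 on the minus strand for Cd3g.
Cd3d: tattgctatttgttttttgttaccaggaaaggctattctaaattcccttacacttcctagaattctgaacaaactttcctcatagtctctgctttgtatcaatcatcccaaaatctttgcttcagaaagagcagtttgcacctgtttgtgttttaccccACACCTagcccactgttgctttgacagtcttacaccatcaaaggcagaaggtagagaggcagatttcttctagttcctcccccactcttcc
Cd3g: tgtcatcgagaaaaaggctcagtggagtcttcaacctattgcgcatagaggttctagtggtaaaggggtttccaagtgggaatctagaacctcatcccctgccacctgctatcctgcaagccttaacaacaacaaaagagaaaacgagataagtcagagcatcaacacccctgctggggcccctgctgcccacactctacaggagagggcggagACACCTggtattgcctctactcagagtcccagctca
Both windows hold the core once, beginning 91 bases before the start of Cd3d and 36 bases before that of Cd3g.

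Cd8b1 encodes the beta chain of the CD8 coreceptor, which marks cytotoxic T cells and is not a gene of most NK cells. Its log2 levels were 6.45, 6.94 and 6.87 in wild-type, 8.0, 6.77 and 7.59 in floxed and 6.60, 6.59, 6.57 and 6.77 in delta arrays. Floxed 1 and floxed 3 stood above every other array, while floxed 2 lay inside the wild-type range. The floxed difference was 0.70 (SE 0.24, adjusted p = 0.242 in limma). Its partner chain Cd8a, from the wider T cell list, had 7.20, 6.63 and 6.97 in floxed arrays against 6.41 to 6.76 in wild-type and 6.54 to 6.57 in delta arrays.

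Cd28, the costimulatory receptor of T cells, is also known from plasma cells. It had log2 levels of 6.21, 6.34 and 6.29 in wild-type, 6.82, 6.36 and 6.99 in floxed and 6.09, 6.07, 6.17 and 6.31 in delta arrays. Floxed 2 exceeded the highest wild-type array by little, and no delta array reached the floxed range. The floxed difference was 0.44 (SE 0.13, adjusted p = 0.178). Thy1, the glycoprotein CD90 of mouse T cells, had 7.06, 7.24 and 7.15 in wild-type, 7.81, 6.93 and 7.29 in floxed and 7.18, 6.93, 7.14 and 7.10 in delta arrays. Floxed 1 stood apart from all other arrays for Thy1, floxed 3 was just above wild-type and floxed 2 was just below it, so that the floxed difference was 0.19 (SE 0.17, adjusted p = 0.689). It was -0.043 without floxed 1 and 0.40 without floxed 2. With sex as a covariate it was 0.060 (SE 0.30), a value that rests on delta 1.

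Among the NK cell receptors, Ncr1 encodes the activating receptor NKp46, which is largely restricted to NK cells and related innate lymphocytes. It had log2 levels of 5.50, 5.40 and 5.46 in wild-type, 5.92, 5.47 and 6.10 in floxed and 5.43, 5.07, 4.84 and 5.44 in delta arrays. The floxed arrays 1 and 3 were the highest of all 10, and every delta array lay below every floxed array. The floxed difference of Ncr1 was 0.37 (SE 0.17, adjusted p = 0.405), and it was 0.24 without floxed 3. With sex as a covariate it was 0.055 (SE 0.29), a value that rests on delta 1.

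Klrd1 encodes CD94, the partner of NKG2 receptors on NK cells and some cytotoxic T cells. Its log2 levels were 5.94, 5.82 and 5.95 in wild-type, 6.13, 5.61 and 6.15 in floxed and 5.51, 5.59, 5.40 and 5.66 in delta arrays. The floxed arrays lay on both sides of the wild-type range, with a difference of 0.07 (SE 0.13, 95% CI -0.22 to 0.35, adjusted p = 0.880). The sign of this difference turned with array weights and when floxed 1 or floxed 3 was left out.

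Among the granule genes, Nkg7, a granule membrane protein of NK cells and cytotoxic T cells, had log2 levels of 6.68, 6.97 and 6.95 in wild-type, 8.79, 6.83 and 8.01 in floxed and 6.89, 6.53, 6.66 and 7.09 in delta arrays. It was high in floxed 1 and floxed 3 and at the wild-type level in floxed 2. Its linear intensity averaged 117 ± 12.7 (SD, n = 3 wild-type), 271 ± 164 (SD, n = 3 floxed) and 112 ± 19.2 (SD, n = 4 delta). The floxed difference of Nkg7 was 1.01 (SE 0.36, adjusted p = 0.263).

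Prf1 encodes perforin, the pore-forming protein of cytotoxic granules. Its log2 levels were 7.53, 7.65 and 7.96 in wild-type, 8.40, 8.78 and 8.41 in floxed and 7.90, 7.86, 7.71 and 8.59 in delta arrays. All floxed arrays lay above all wild-type arrays, with floxed 2 the highest, and delta 4 stood inside the floxed range. Its linear intensity averaged 212 ± 33.7 (SD, n = 3 wild-type), 372 ± 58.3 (SD, n = 3 floxed) and 267 ± 79.4 (SD, n = 4 delta), and the floxed difference was 0.81 (SE 0.20, 95% CI 0.37 to 1.25, adjusted p = 0.106).

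Gzmb, the serine protease granzyme B, had the narrowest range of levels among the 10 genes. It had 5.21, 5.33 and 5.41 in wild-type, 5.55, 5.38 and 5.50 in floxed and 5.48, 5.52, 5.46 and 5.45 in delta arrays. The delta arrays, not the floxed arrays, lay above wild-type without overlap. The difference was 0.17 in floxed (SE 0.07, adjusted p = 0.351) and 0.16 in delta (SE 0.07, adjusted p = 0.561).

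The upstream windows of Prf1 and Nkg7 are shown because these granule genes followed different arrays, and capitals mark the T-box core as before. The Prf1 window is chr10:61297586-61297835 and the Nkg7 window chr7:43436888-43437137, both on the plus strand of GRCm38.p6.
Prf1: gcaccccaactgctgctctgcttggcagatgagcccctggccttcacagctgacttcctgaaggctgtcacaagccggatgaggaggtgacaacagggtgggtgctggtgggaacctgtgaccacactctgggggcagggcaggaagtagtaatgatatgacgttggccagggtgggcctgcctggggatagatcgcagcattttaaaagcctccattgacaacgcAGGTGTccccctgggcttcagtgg
Nkg7: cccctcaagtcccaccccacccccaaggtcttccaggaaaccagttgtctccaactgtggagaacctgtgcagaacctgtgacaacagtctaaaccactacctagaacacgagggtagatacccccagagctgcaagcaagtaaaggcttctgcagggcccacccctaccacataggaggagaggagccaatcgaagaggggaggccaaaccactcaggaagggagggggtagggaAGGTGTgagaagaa
The core begins 24 bases before the start of Prf1 and 14 bases before that of Nkg7. In the Prf1 window it overlaps an E-box CAGGTG. The core in the Cd3g window overlaps an E-box as well, on the other strand.

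RefSeq windows were at hand for 6 of the 10 genes. The T-box core, on either strand, was in those of Cd3d, Cd3g, Prf1 and Nkg7 and not in those of Ncr1 and Gzmb, while 11.8% of 32851 mouse windows of the same length hold it. The RUNX core TGTGGT, on either strand, was in the windows of Ncr1, Nkg7, Prf1 and Gzmb, beside 14.0% of all windows, and the E-box CAGGTG, on either strand, in those of Cd3d, Cd3g and Prf1, beside 17.2%. These matches are letters in a window and not measured binding, and they did not sort the genes by their pattern over arrays, since Prf1 and Nkg7 both hold the T-box core.

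**Figure D2:**
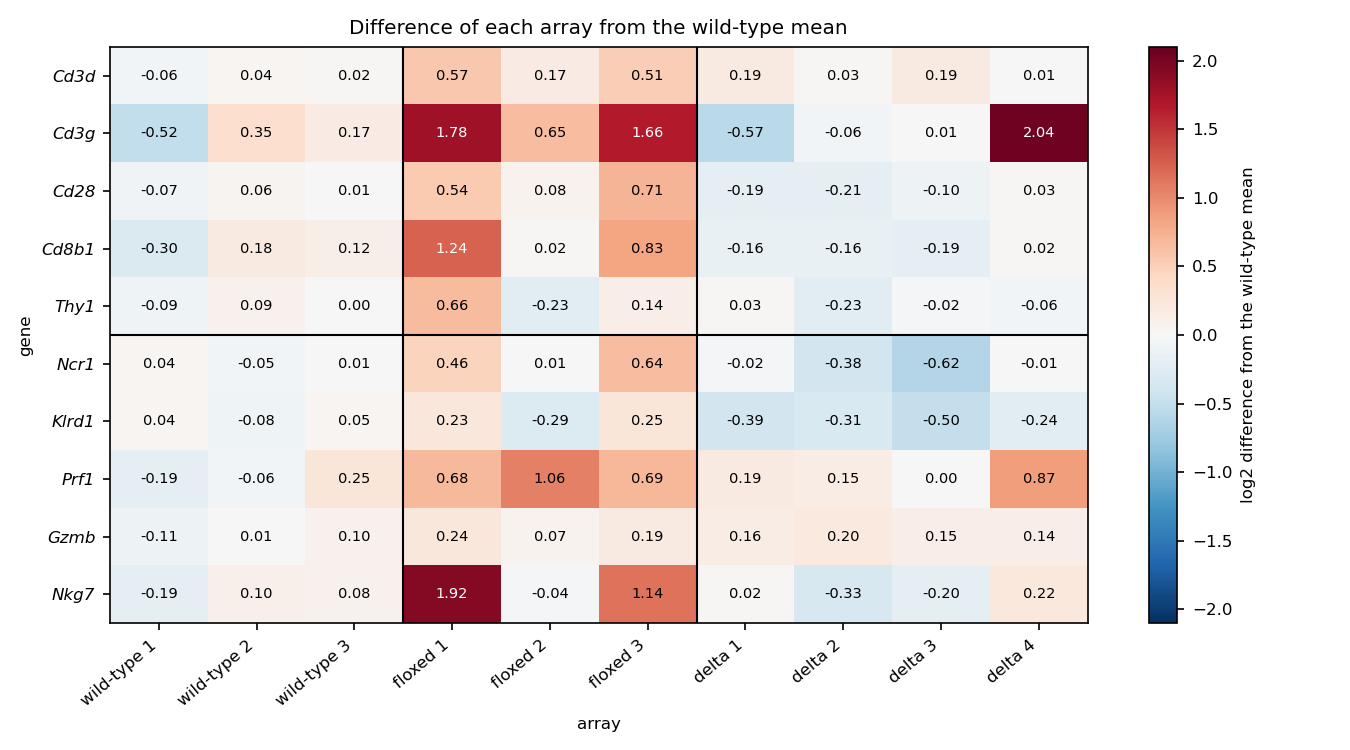
Log2 difference of each array (columns) from the wild-type mean for each gene (rows), with red above and blue below 0 and the value printed in each cell. The columns of floxed 1 and floxed 3 are above 0 in every row, floxed 2 stands out for Prf1 at 1.06, and delta 4 stands out for Cd3g at 2.04 and Prf1 at 0.87.

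Leaving out floxed 2, 1 of the 10 planned omissions of an array, changed the calls. Without it Cd3d was called at 0.54 (SE 0.08, adjusted p = 0.0323), Cd28 at 0.63 (SE 0.09, adjusted p = 0.0305), Cd8b1 at 1.04 (SE 0.15, adjusted p = 0.0323) and Nkg7 at 1.53 (SE 0.22, adjusted p = 0.0276), all by limma in floxed against wild-type. These are 4 of 10 genes, beside 0.13% of all genes called higher in the same fit. Floxed 2 was the lowest floxed array for each of these 4 genes. Calls made without it can follow from that alone, so this count is a description only. Prf1 was called without delta 4 instead, at 0.81 (SE 0.13, adjusted p = 0.0126), 1 of 10 genes beside 0.923% of all genes called higher. Leaving out floxed 1 took Nkg7 to 0.55 and Cd8b1 to 0.43, neither of them past the threshold. The size of the Nkg7 and Cd8b1 differences thus depended on which floxed arrays were counted.

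Delta against wild-type asked whether these genes stood apart after exposure of the transgene to Cre. Both comparisons with wild-type share the wild-type arrays. None of the 10 genes passed the threshold, beside 0.0752% of all genes, 0.0301% higher and 0.0451% lower. At an unadjusted p under 0.05 Gzmb was higher and Klrd1 lower, beside 3.46% of all genes higher and 4.44% lower. The median difference of the 10 genes was -0.07, beside -0.01 over all genes, and 4 of 10 had a higher mean, beside 43.6% of all genes, and 6 a lower one, beside 56.4%. All 4 delta arrays lay below all wild-type arrays for Klrd1 (-0.36, SE 0.12, adjusted p = 0.442), beside 5.5% of all genes, and all lay above for Gzmb, beside 3.75%. Ncr1 was at -0.26 (SE 0.16, adjusted p = 0.771) and Prf1 at 0.30 (SE 0.19, adjusted p = 0.771). The difference of Cd3g was 0.36 (SE 0.52) with all arrays and -0.21 without delta 4.

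Delta against floxed set both transgenic groups beside each other. All 10 genes had a lower mean in delta arrays, as did 47.9% of all genes (52.1% had a higher mean), with a median of -0.54, beside 0.0045 over all genes. None passed the threshold, beside 0.00502% of all genes, and 7 of 10 had an unadjusted p under 0.05 in this direction, beside 3.2%, and 0 in the other, beside 3.22%. Delta arrays lay below floxed arrays without overlap for Cd28 (-0.56, SE 0.12, adjusted p = 0.563), Cd8b1 (-0.82, SE 0.22, adjusted p = 0.641) and Ncr1 (-0.63, SE 0.16, adjusted p = 0.624), all by limma. These were 3 of 10 genes, beside 3.61% of all genes, and 0 lay above without overlap, beside 3.36%. The gaps were small, with delta 4 and floxed 2 at 6.31 and 6.36 for Cd28, 6.771 and 6.775 for Cd8b1 and 5.44 and 5.47 for Ncr1. Without floxed 2, Cd28, Cd8b1 and Nkg7 were called lower in delta, at -0.74, -1.16 and -1.61, with adjusted p of 0.0333, 0.0450 and 0.0450 in limma. These were 3 of 10 genes, beside 0.0251% of all genes called lower. Floxed 2 was the lowest floxed array for these genes too, so this count is a description only. Of the arrays with a male pattern, delta 1 had a median of 0.00083 for the 10 genes relative to the wild-type mean and floxed 2 had 0.04, while floxed 1 and floxed 3 had 0.62 and 0.67. The part of sex in these values was not tested.

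Likeness between the genes was measured as Pearson's r over the 10 arrays, as a description of arrays that share groups. The median r was 0.75 over the 10 pairs of T cell genes, 0.47 over the 10 pairs of NK and cytotoxic genes and 0.61 over the 25 pairs between the lists, against -0.01 for these genes with all other genes. Cd8b1 and Nkg7, a T cell and a granule gene, were the closest pair, at 0.98, and Thy1 with Nkg7 was at 0.90. Over the 45 pairs the median rank correlation was 0.50.

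Floxed 1 and floxed 3 were left out next because all 10 genes were high there. A lower r can follow from that choice alone, so these values are a description only. Without these 2 arrays the median r over the 45 pairs was 0.24 in place of 0.64, and 30 pairs were above 0 in place of 44. By list, the median went from 0.75 to 0.07 for the T cell pairs, from 0.47 to 0.29 for the NK and cytotoxic pairs and from 0.61 to 0.24 between the lists. Prf1 was the gene least like the others within groups. After removal of the group means its median r with the other 9 was -0.06, its r with Cd3d was -0.55, and its highest r was 0.59, with Cd3g.

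Many, but not all, other T cell genes were high in floxed 1 and floxed 3 as well. Of 28 genes listed 25 were measured, and none was called in any of the 3 comparisons, with a median difference of 0.12 in floxed and -0.05 in delta against wild-type. In floxed 1, 20 of 25 lay above every wild-type array, in floxed 3 there were 16, and in floxed 2 there were 3, beside the 25.3%, 27.4% and 22.9% of all genes given above. Below every wild-type array were 2, 2 and 8 of 25 in floxed 1, 3 and 2, beside 29.4%, 35.8% and 34.1% of all genes, so that the count in floxed 2 was near the share of all genes. Their mean level per array ran from 6.53 to 6.68 in wild-type, 6.57 to 7.01 in floxed and 6.51 to 6.66 in delta arrays. Cd3e had 7.50, 7.85 and 7.57 in wild-type and 8.48, 7.65 and 8.36 in floxed arrays (0.52, SE 0.19, adjusted p = 0.284). Ms4a4b, a membrane protein of T cells, was at 0.80 (SE 0.25, adjusted p = 0.193), and the helper T cell coreceptor Cd4 had 7.11, 6.42 and 6.84 in floxed arrays, with wild-type at 6.47 to 6.69. Cd247 of the same list had 7.24, 6.87 and 7.03 in floxed arrays. Its wild-type levels were 6.83 to 7.15, so floxed 3 lay inside that range, and its floxed difference was 0.03 (SE 0.10).

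Of 28 other NK and cytotoxic genes, all measured, none was called in any comparison, with a median of 0.11 in floxed and -0.03 in delta against wild-type. Floxed 1 had 20 of 28 above every wild-type array and 3 below, floxed 2 had 9 above and 12 below, and floxed 3 had 15 above and 6 below, beside the same shares of all genes. Their mean level per array ran from 6.07 to 6.16 in wild-type, 6.25 to 6.46 in floxed and 6.06 to 6.30 in delta arrays. Il2rb, a receptor chain for interleukins 2 and 15, had 6.39, 6.58 and 6.49 in wild-type, 8.01, 8.11 and 7.53 in floxed and 6.73, 6.56, 7.08 and 8.33 in delta arrays (1.40, SE 0.36, adjusted p = 0.115 in floxed). The integrin gene Itga2 had 7.76, 8.06 and 7.54 in floxed and 8.34 in delta 4, against 6.83 to 6.98 in wild-type arrays (0.90, SE 0.27, adjusted p = 0.180). Ctsw, a cathepsin of cytotoxic cells, was at 0.36 (SE 0.10, adjusted p = 0.134). Klrb1c, which encodes NK1.1, had 5.10, 4.38 and 5.21 in floxed arrays, with wild-type at 4.78 to 4.91, and granzyme A, Gzma, had 5.85, 5.49 and 5.96 against 5.73 to 5.79.

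Floxed 2 thus stood high for Il2rb and Itga2, as for Prf1, and low for Klrb1c and Gzma. The list of T-bet and its known targets, 8 genes all measured, includes Il2rb. Floxed 2 was the highest floxed array for 6 of them, beside 28.6% of all genes, and the lowest for 2, and delta 4 was the highest delta array for 7, beside 29.3%. Tbx21 rose in floxed by 2.11 over wild-type (SE 0.32, adjusted p = 0.0171), with 7.24, 7.39 and 7.21 in wild-type, 9.36, 9.70 and 9.12 in floxed and 8.53, 8.31, 8.40 and 9.82 in delta arrays. Cxcr3, a chemokine receptor and T-bet target, rose in floxed and in delta (adjusted p = 0.00945 and 0.0444), and the other 6 were not called in floxed. Ifng, the interferon gene of activated NK and T cells and another T-bet target, stayed between 6.65 and 6.81 in all 10 arrays.

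Prf1 and Tbx21 had an r of 0.88 over 10 arrays (rank correlation 0.78), and 0.93 without the arrays farthest from the Tbx21 median, wild-type 3 and delta 4. Prf1 and Cd3e had an r of 0.50, and 0.39 without floxed 1 and floxed 3. For Nkg7 the r was 0.42 with Tbx21 and 0.95 with Cd3e, and the latter was 0.79 without floxed 1 and floxed 3. Cd3g lay between these patterns, with an r of 0.71 with Tbx21 and 0.82 with Cd3e. Cd3e was chosen after its values were seen, and it was among the genes closest to the mean of the T cell genes. A high r of the T cell genes with Cd3e can follow from that choice alone, so the values with Cd3e are a description only. Cd28 and Cd8b1 had an r of 0.96 each with Cd3e, and of 0.86 and 0.77 without floxed 1 and floxed 3. For Ncr1 and Klrd1 the r with Cd3e went from 0.83 and 0.77 to 0.48 and 0.35 without these 2 arrays. For Cd3d and Thy1 the r with Cd3e was 0.80 each over 10 arrays, and -0.28 and 0.32 without floxed 1 and floxed 3. Their r with Tbx21 was 0.51 and 0.16, and 0.72 and 0.25 without wild-type 3 and delta 4. Gzmb had an r of 0.38 with Cd3e and 0.58 with Tbx21, and rank correlations of 0.04 and 0.37. Its r was -0.29 with Cd3e without floxed 1 and floxed 3, and 0.66 with Tbx21 without wild-type 3 and delta 4.

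**Figure D3:**
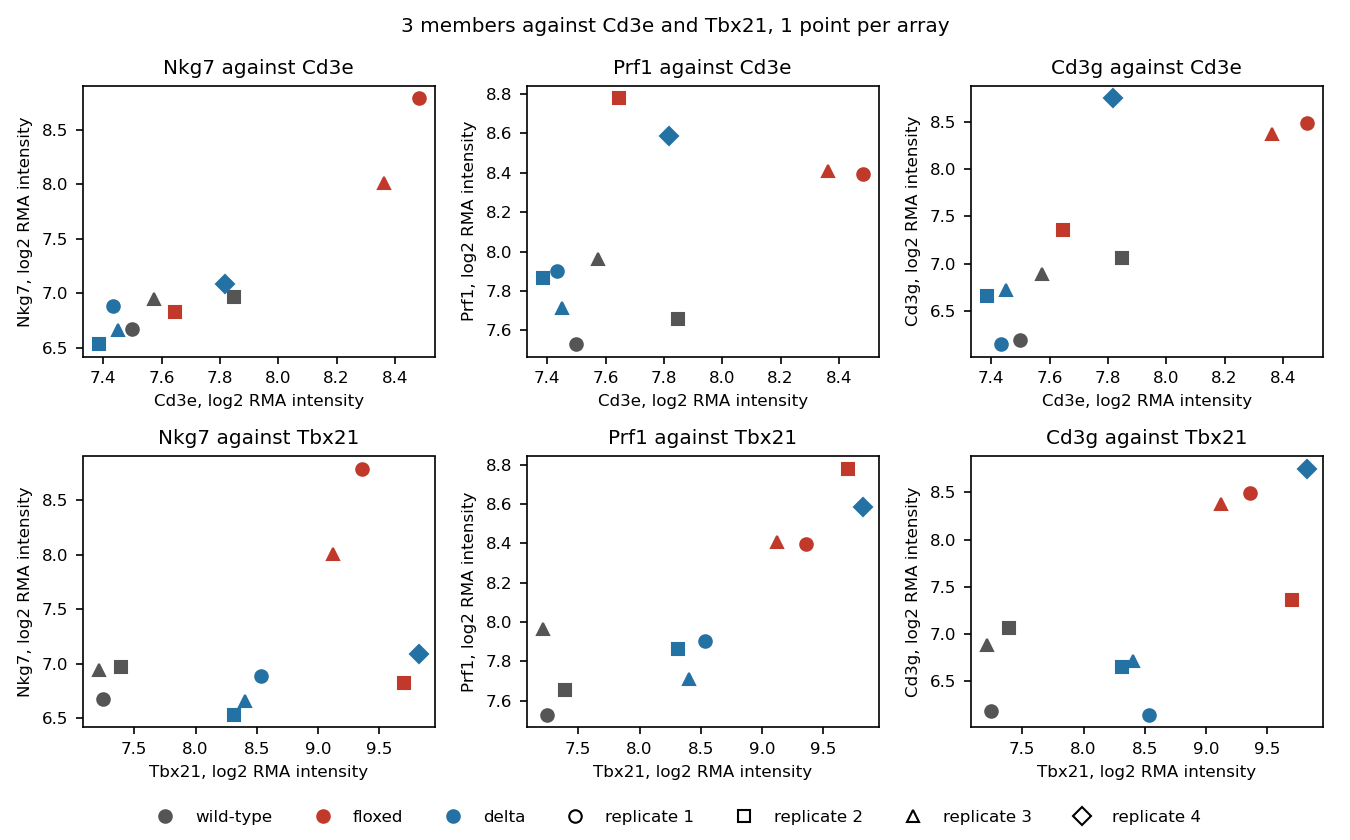
Log2 RMA intensity of Nkg7, Prf1 and Cd3g (vertical axes) against Cd3e (top row) and Tbx21 (bottom row), 1 point per array, with colour for the group and shape for the replicate. Nkg7 is high only where Cd3e is high (floxed 1 and 3), Prf1 is high in the 4 arrays with the highest Tbx21 (floxed 1, 2, 3 and delta 4), and Cd3g is high in floxed 1, floxed 3 and delta 4.

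By the rule for likeness, the 5 other genes closest to the mean of the 5 T cell genes were Olfr1084 (r = 0.97), Cd3e (r = 0.97), Il7r (r = 0.95), Prkcq (r = 0.94) and Actn1 (r = 0.94). Il7r encodes the interleukin-7 receptor of T cells and B cell precursors, and Prkcq encodes protein kinase C theta of T cell receptor signalling. Il7r had 7.61, 6.01 and 7.09 in floxed arrays, with wild-type at 5.83 to 6.76, and Prkcq had 7.35, 6.27 and 7.11 against 6.22 to 6.71. Olfr1084, an olfactory receptor gene, lay between 2.88 and 3.41 in all arrays. The closest to the mean of the 5 NK and cytotoxic genes were Pqlc3 (r = 0.95), Edem1 (r = 0.94), Ifitm6, Ms4a4b and Slc25a24 (r = 0.93 each), of which Edem1 acts in the disposal of misfolded proteins. Edem1 ranged only from 10.68 to 10.95. None of these genes was called in floxed against wild-type.

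Markers of other cells were also measured in each array. The 13 myeloid genes had a mean of 0.63, 0.36 and 0.30 above the wild-type mean in floxed 1, 2 and 3, and 0.62 in delta 4. The macrophage gene Adgre1 (1.91, SE 0.43, adjusted p = 0.0809) and the receptor subunit Fcer1g (1.55, adjusted p = 0.0699) led them. The list was mixed in 2 arrays, with 5 of 13 above and 5 below every wild-type array in floxed 2, and 5 above and 4 below in floxed 3. In floxed 1, 9 were above and 1 below, and in delta 4, 9 above and 2 below. Of all genes, 25.3%, 22.9%, 27.4% and 25.5% were above in floxed 1, 2, 3 and delta 4. Below were 29.4%, 34.1%, 35.8% and 28.6% of all genes. Ltf, a neutrophil granule gene, was at 0.30 (adjusted p = 0.263). Adgre1 and Fcer1g had their highest levels in delta 4, at 10.15 and 9.34, and among floxed arrays in floxed 2, at 9.83 and 9.33. For Ltf the highest floxed array was floxed 1, at 6.11, and floxed 2 was the lowest, at 5.69. The 9 measured erythroid genes had 0.84, 0.56 and 0.34 in floxed 1, 2 and 3, with Slc4a1, the anion exchanger of red cells, at 9.86, 9.48 and 8.71 against 7.83 to 8.33 in wild-type arrays. Car1 was at 0.56 (adjusted p = 0.0568) and Trim10 at 0.82 (adjusted p = 0.10), and no erythroid or myeloid gene of these lists was called. The mean of neither list was lower in floxed 2 than in floxed 3, unlike the means of the T cell lists. By gene, floxed 2 was the lowest floxed array for 6 of 13 myeloid and 4 of 9 erythroid genes. It was the lowest for 19 of the 25 other T cell genes, beside 30.7% of all genes.

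The 6 measured genes of plasmacytoid dendritic cells had array means within 0.15 of the wild-type mean throughout, with Ccr9 at 0.68 (adjusted p = 0.252), Cd300c at -0.21 and Cox6a2 at -0.15 in floxed. The B cell genes had array means from -0.15 to 0.04, with Fcer2a at -0.34, Cd22 at 0.20 and Cd79b at -0.09 in floxed against wild-type, where 0 of 11 were called. In delta against wild-type 1 of the 11 was called, Cd79a, which fell, and 3 lay lower without overlap. Of 7 plasma cell genes Jchain rose (1.64, adjusted p = 0.00383) and Sdc1 fell (-0.51, adjusted p = 0.0450), while Mzb1 was at 0.18. Their array means in floxed 1, 2 and 3 were 0.24, 0.26 and 0.24, without the step between floxed 2 and the others. The part of other cells in the values of the T and NK cell genes was not tested.

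**Figure D4:**
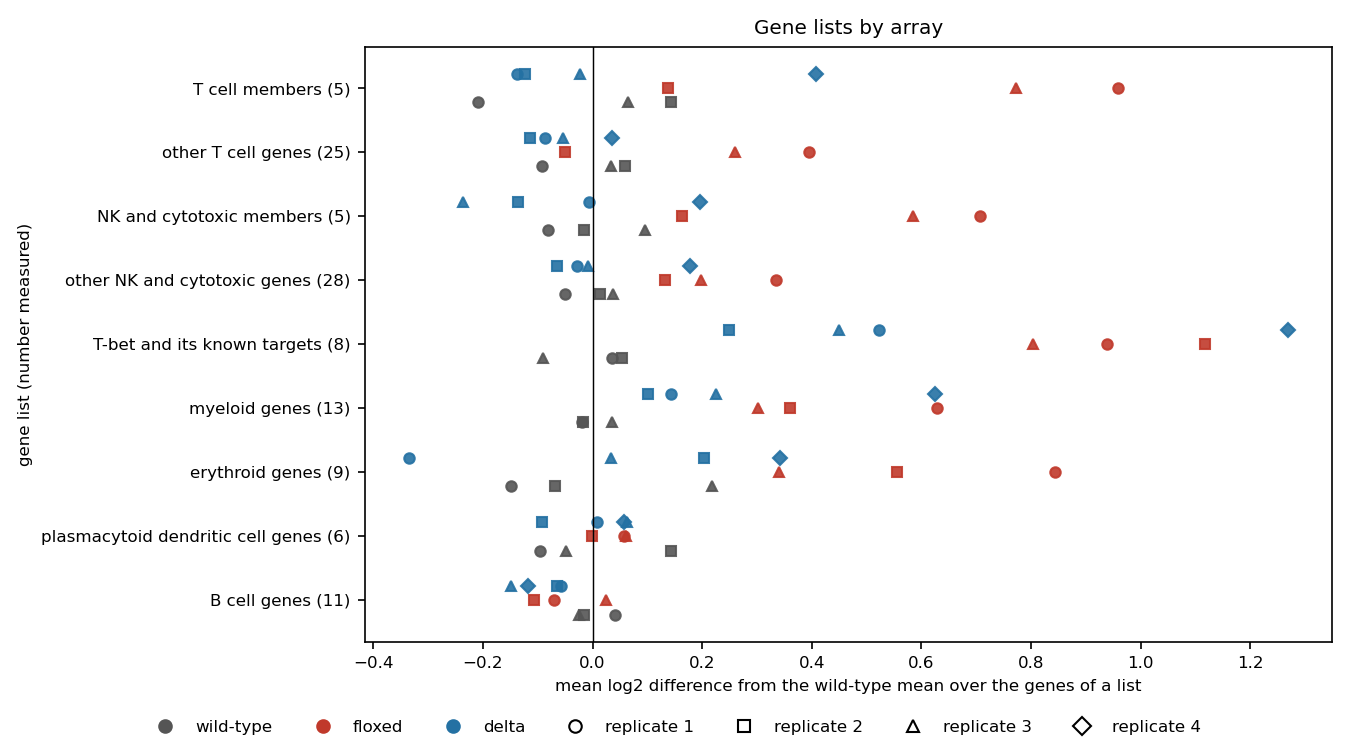
Mean log2 difference from the wild-type mean (horizontal axis) over the genes of each list (rows, with the number measured), 1 point per array, with colour for the group and shape for the replicate. In the T cell lists floxed 1 and 3 stand apart from floxed 2, in the list of T-bet and its targets floxed 2 is above both and delta 4 is the highest, and the B cell list stays near 0.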

How the data were processed

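The authors deposited 1 linear-scale RMA intensity per probe set and array, RMA being named in the submitters' processing notes. For RMA, the software, version and genome build were not given in the sources used here. Log2 of each value was taken, with no added constant. Of 34760 probe sets, 21640 had 1 gene symbol in the platform annotation, 1321 had several and 11799 had none. For the 954 genes with several single-symbol probe sets the one with the highest mean was kept, which left 19937 genes. Each of the 10 genes had 1 probe set, and none was in a probe set of several symbols. Some listed genes are not reported here.

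limma 3.58.1 in R 4.3.3 fitted 3 group means over 10 arrays (lmFit, eBayes, 11.3 degrees of freedom), two-sided. No detection call was used, and the number of arrays limits the precision. The genes and lists were chosen with earlier results of these data known. Named genes are the 10 genes, the 5 genes most like the mean of each list, the 3 genes of smallest p per list, Bcl6 and the sex genes. Cd4, Cd247, Cd79a, Gzma, Klrb1c and Ifng were chosen after their values were seen. So were Cd3e and Cd8a, which the rules above also name. Replicate numbers did not pair the arrays. Alternatives to normalization, filter, unit, prior, scale, weights, arrays in the fit, block and sex were tried, and each array was left out in turn.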

Additional observations from a re-analysis of the deposited data

Results flagged for a closer look

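In the 4 delta arrays, 5 of 49 genes tested held a value far from the other 3 arrays. The gap was past the 95% critical value of Dixon's test, which chance passes in about 5% of independent genes. Many of the 49 were named by likeness, by p or after their values were seen, and all share these arrays. The 5% is thus no measure for this count. Delta 4 was the high value for 4 of the 5 genes. Cd8b1 was at 6.77 there against 6.57 to 6.60 in the others, Cd3e at 7.82 against 7.38 to 7.45, Itga2 at 8.34 against 7.08 to 7.24 and Tbx21 at 9.82 against 8.31 to 8.53. Car1 was low in delta 1, at 6.66 against 6.81 to 6.83. Cd8b1 and Cd3e in delta 4 stayed inside the wild-type range, while Itga2 and Tbx21 exceeded every floxed array.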

How the results depend on the processing

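Of 588 values of the 10 genes under alternatives, 565 kept their sign and their side of the threshold, 10 passed it and 13 turned sign. Beside the calls given above, Prf1 passed in floxed against wild-type with only these 2 groups (adjusted p = 0.0314) and with a replicate block (adjusted p = 0.0293). Klrd1 turned to -0.064 with array weights in floxed against wild-type, Cd3g to -0.21 with the replicate block in delta against wild-type, and Gzmb in delta against floxed from -0.0035 to 0.028 with array weights and 0.0044 with the block. With 1 array left out, Thy1 ran from -0.043 to 0.40 and Klrd1 from -0.029 to 0.24 in floxed against wild-type, Cd3g from -0.21 to 0.66 and Nkg7 from -0.17 to 0.014 in delta against wild-type, and Gzmb from -0.052 to 0.033 in delta against floxed. The median of the 10 genes ran from 0.34 to 0.59 in floxed and from -0.17 to 3.6e-05 in delta against wild-type, and from -0.67 to -0.46 in delta against floxed. It has no value with the filter on dim genes, a mean log2 of at least 6, which removed Cd3d, Ncr1, Klrd1 and Gzmb.

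Calls over all genes in floxed against wild-type went from 110 to 169 with the filter on dim genes, 208 with array weights, 193 with only 2 groups, 188 with the replicate block and 2 with sex as a covariate, and from 18 to 240 with 1 array left out. In delta against wild-type 15 became 0 with every probe set as a unit (1755 at an unadjusted p under 0.05 in limma) and with only 2 groups (1744), 9 with a trended robust prior, 6 with the block and 3 with sex, and 0 to 23 with 1 array left out (1313 to 1756 unadjusted where the count was 0). In delta against floxed 1 became 3 with the trended robust prior, 2 with only 2 groups and 2 with the block, and 1 to 10 with 1 array left out. The cause was not tested. Same-numbered arrays of different groups had deviations with an r of -0.08 to 0.12, over 0.1 in 1 of 9 pairs, and in 3 of 9 cases an array was most like its own number, so the numbers do not pair the arrays.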
